A study of Mus musculus with 6 samples.

Results

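The imprinted genes of distal mouse chromosome 7 lie in a pair of neighbouring clusters, named for H19 and Igf2 and for the long non-coding RNA Kcnq1ot1. Expression of 10 genes of these clusters was examined in WT EpiLCs and Oct6 KO EpiLCs, out of 55416 genes in the deposited count table. The genes were taken by name, through the Ensembl identifiers of the count table and the GENCODE mouse gene names. H19 and Igf2 represented the first cluster, and Kcnq1ot1, Kcnq1, Cdkn1c, Phlda2, Slc22a18, Ascl2, Tssc4 and Nap1l4 the other 8 genes of the Kcnq1ot1 cluster. All 10 had a row in the table.

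Epiblast-like cells (EpiLCs) are a culture model of the formative pluripotent state, obtained from naïve mouse embryonic stem cells. WT EpiLCs came from the parental 46C line, which carries a Sox1-GFP reporter, and Oct6 KO EpiLCs from 1 clone of that line in which both alleles of Oct6 (Pou3f1) carry an extra adenine where Cas9 cut, a transcription factor of the POU family. Cells of both genotypes were kept in N2B27 with 2i+LIF, then differentiated for 48 h on fibronectin in N2B27 with Activin A at 20 ng/ml, bFGF at 12 ng/ml and KSR at 1% by the sample labels (the text of the series gives µg/ml), in 3 paired biological replicates per genotype. With a single KO clone, the effect of the insertion and any other property of that clone cannot be told apart. Oct6 RNA checked nothing about the genotype, since an insertion of a single base does not remove the transcript: its level was 161, 143 and 122 CPM (counts relative to the library total after TMM normalization) in the WT libraries and 127, 141 and 128 CPM in the KO libraries.

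Imprinted genes are expressed mainly from the allele inherited from 1 parent, according to DNA methylation set in the germ line at an imprinting control region. In the H19-Igf2 cluster, the insulator protein CTCF binds the unmethylated maternal control region, so that H19 is transcribed from the maternal and Igf2 from the paternal chromosome. In the neighbouring cluster the control region is the promoter of Kcnq1ot1, whose RNA is made from the paternal chromosome in antisense to Kcnq1 and represses genes on both sides in cis. Cdkn1c and Phlda2, which restrain growth of the embryo and of the placenta, and Kcnq1, Slc22a18, Ascl2 and Tssc4 are known as maternally expressed genes of that domain, the last ones mainly in extraembryonic tissue, and Nap1l4 lies at its edge. The counts used here do not separate the parental alleles, so every value is the sum of both.

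CTCF-type sequences before H19 are shown because the control region of its cluster is known to bind CTCF, and the matches are letters only, with no binding measured. The motifs were searched on both strands, spelled as CGCNN followed directly by GGNGGCAG. In the 5 kb before the annotated start of H19 (GENCODE M39, GRCm39) 4 matches were found, of 104 on the whole of chromosome 7 (0.734 per Mb), and 0.289% of 300-base RefSeq promoters held a match. They lay 89, 544, 1570 and 1814 bases before that start, at chr7:142134037-142134067, chr7:142134492-142134522, chr7:142135518-142135548 and chr7:142135762-142135792, all on the minus strand like H19 itself. The start used is the outermost end of the annotated gene, and distances to any other start of H19 were not measured. The matches are printed 5′ to 3′ in that order, with the motif in capitals.

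H19 upstream site 1: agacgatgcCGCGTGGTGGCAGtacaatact
H19 upstream site 2: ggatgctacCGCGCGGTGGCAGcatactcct
H19 upstream site 3: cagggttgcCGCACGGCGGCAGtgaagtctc
H19 upstream site 4: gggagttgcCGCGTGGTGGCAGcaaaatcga

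The promoters of Kcnq1ot1 and Phlda2, whose starts lie 206 kb apart, are shown because these genes moved in opposite directions. Both sequences are from RefSeq (250 bases before to 50 after the start, minus strand) and were placed on GRCm39 by exact match, at chr7:142850235-142850534 for Kcnq1ot1 and chr7:143056212-143056511 for Phlda2. Capitals mark CCAAT boxes and GC boxes (GGGCGG), searched on both strands.

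Kcnq1ot1 promoter: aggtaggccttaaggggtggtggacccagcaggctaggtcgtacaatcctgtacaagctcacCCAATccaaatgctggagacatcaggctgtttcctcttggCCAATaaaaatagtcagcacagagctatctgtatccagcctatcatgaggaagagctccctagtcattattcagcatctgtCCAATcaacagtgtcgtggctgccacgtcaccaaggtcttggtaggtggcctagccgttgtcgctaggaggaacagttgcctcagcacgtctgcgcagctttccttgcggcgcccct
Phlda2 promoter: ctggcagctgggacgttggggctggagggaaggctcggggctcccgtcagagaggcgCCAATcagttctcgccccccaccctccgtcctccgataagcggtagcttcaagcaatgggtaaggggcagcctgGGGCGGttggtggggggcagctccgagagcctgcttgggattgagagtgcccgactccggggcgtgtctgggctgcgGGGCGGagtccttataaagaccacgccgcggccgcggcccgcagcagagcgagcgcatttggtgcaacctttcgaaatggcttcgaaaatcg

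The Kcnq1ot1 promoter held 3 CCAAT boxes in the same orientation, at -188, -148 and -67 from the start, and 9 CpG. The Phlda2 promoter held 1 CCAAT box, 2 GC boxes and 26 CpG, where 84.5% of the 32851 RefSeq promoters had no more. Of all these promoters, 37.4% held a CCAAT box and 35.7% a GC box on either strand. The octamer ATGCAAAT, which POU factors such as Oct6 are known to bind, was in neither window and in 1.74% of all promoters. The RefSeq table used here also held promoters of Ascl2, Tssc4, Slc22a18 and Igf2 and none of H19, Cdkn1c, Kcnq1 and Nap1l4. H19 is also the host of miR-675, whose mature sequences (RefSeq, seed in capitals) follow.

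miR-675-5p: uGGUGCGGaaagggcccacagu
miR-675-3p: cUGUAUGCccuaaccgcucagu

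Total counts per library ran from 10995505 to 14680930, and 15746 genes had enough counts for a test with edgeR's quasi-likelihood method, using Benjamini-Hochberg adjustment over all of them. Of these genes 24.3% had an adjusted p below 0.1, the threshold used throughout: 11.8% were higher and 12.5% lower in Oct6 KO EpiLCs. DE genes also had to differ by a log2 value of 1 or more in either direction, which 6.21% did, and for 33.7% the CPM of the KO and WT libraries did not overlap. The 8 EpiLC markers checked (Pou5f1, Sox2, Utf1, Otx2, Fgf5, Dnmt3b, Sall4 and Lin28a) were all detected, at a summed level of 3133 to 3463 CPM in WT and 3036 to 3168 CPM in KO libraries. Most of that sum was Dnmt3b and Pou5f1, so it says little about the other markers. Over the 1225 genes tested on chromosome 7, the median log2 fold change was -0.00038. The median was -0.40 over the 773 genes tested on chromosome 6 and 0.55 over the 471 on chromosome 16.

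Within the imprinted clusters, both long non-coding RNAs were higher in Oct6 KO EpiLCs and both growth-restraining genes were lower. H19 rose to 1.70 times its WT level and Kcnq1ot1 to 1.5 times, while Cdkn1c fell to 0.568 times and Phlda2 to 0.398 times. These were the 4 members past the threshold, 2 in each direction, of the 8 that could be tested, beside 24.3% of all genes tested. Phlda2 was the single DE gene among them, beside 6.21%. The protein-coding genes Tssc4, Nap1l4, Ascl2 and Slc22a18 did not pass, and Igf2 and Kcnq1 had too few counts. The CPM of KO and WT libraries did not overlap for Kcnq1ot1, Tssc4, Cdkn1c and Phlda2, beside 33.7% of all genes tested. Those of H19 overlapped, and H19 lost its call with DESeq2 (adjusted p = 0.123).

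**Figure D1:**
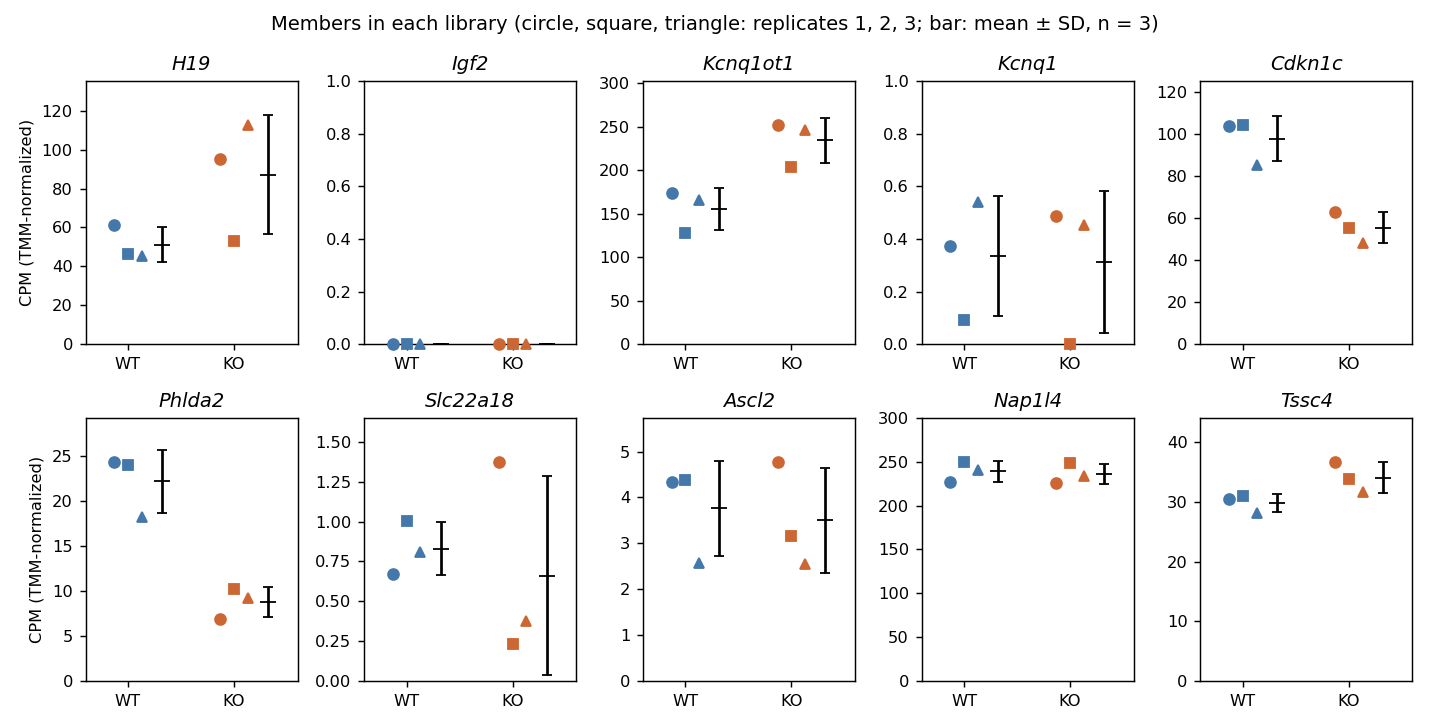
CPM of the 10 genes in each library of WT EpiLCs (blue) and Oct6 KO EpiLCs (orange), with a linear axis from 0 for each gene, circles, squares and triangles for replicates 1, 2 and 3, and bars for the mean ± SD (n = 3). Cdkn1c lay between 85.3 and 104 CPM in WT and between 48.2 and 63.1 CPM in KO libraries, while H19 in KO replicate 2 (53.2 CPM) fell within the range of WT.

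H19 (chr7:142129262-142133957, minus strand) makes an abundant spliced RNA that is not translated and is widely expressed in the embryo. Its level was 61.5, 46.4 and 45.4 CPM in WT (replicates 1, 2 and 3, the order used for every gene) and 95.3, 53.2 and 113 CPM in KO libraries. KO replicates 1 and 3 lay above every WT library, whereas KO replicate 2 lay below WT replicate 1, so that the groups overlapped. The mean was 51.1 ± 9.01 CPM in WT and 87.1 ± 30.6 CPM in KO (SD, n = 3 each), and the KO SD exceeded that of WT. The log2 fold change was 0.77 ± 0.19 (SE) with an adjusted p of 0.0068 in edgeR. With DESeq2 the same log2 fold change of 0.77 had an adjusted p of 0.123, so the call was lost. Between libraries of the same replicate number, KO over WT was 1.55, 1.14 and 2.48. The row of Mir675, which lies wholly inside H19, was at 0 in all 6 libraries, and reads of its precursor could not be told from those of H19.

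Igf2 (chr7:142204503-142220694, minus strand), the growth factor made from the other parental allele, was listed at 0 counts in all 6 libraries. Whether this row measures the gene is not known. In GENCODE M39, 58.4% of its 6162 exon bases and 79.3% of its coding bases are shared on the same strand with the gene Gm49394. Gene counting in STAR leaves out reads that fit more than 1 gene, while 2563 exon bases are not shared. Gm49394 itself had 0 counts in 5 libraries and 1 count in KO replicate 2. The release that the authors used is not given in the sources used here. The part of the overlap in the 0 of Igf2 was not tested, no fold change was computed, and nothing was read from its row about its expression. Igf2os, on the opposite strand, had 7 counts in WT and 1 in KO over the 3 libraries of each.

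Kcnq1ot1 (chr7:142731402-142850327, minus strand), the RNA that starts at the promoter printed above, had a higher CPM than H19, the other long non-coding member. Per kb of exons its level was lower than that of H19 (1.66 against 18.0 CPM per kb in WT). Kcnq1ot1 has 93852 exon bases and H19 has 2848. Kcnq1ot1 reached 174, 128 and 166 CPM in WT and 252, 204 and 246 CPM in KO libraries. Every KO library lay above every WT library, and replicate 2 was the lowest of both genotypes. The mean rose from 156 ± 24.5 to 234 ± 26.4 CPM (SD, n = 3), a log2 fold change of 0.59 ± 0.12 with an adjusted p of 0.0015 (edgeR). Matched by replicate number, the KO library held 1.45, 1.6 and 1.49 times the WT level, a narrower range than that of H19.

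Kcnq1 (chr7:142660099-142980788, plus strand), a potassium channel subunit gene that contains Kcnq1ot1 in antisense, had at most 8 counts in any library. The counts were 5, 1 and 8 in WT and 6, 0 and 6 in KO libraries, and the groups overlapped. At this depth no difference could be tested. Of its 5130 exon bases, 834 overlap those of Kcnq1ot1 on the opposite strand, and whether the authors counted by strand is not given in the sources used here. Those bases are 0.889% of the exon bases of Kcnq1ot1, so few of its reads could be assigned to Kcnq1 in any case. Whether the few Kcnq1 counts include such reads cannot be told.

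Cdkn1c (chr7:143012069-143014806, minus strand) encodes p57, an inhibitor of cyclin-dependent kinases that lets cells leave the cell cycle. Its level was 104, 104 and 85.3 CPM in WT and 63.1, 55.3 and 48.2 CPM in KO libraries. The lowest WT library exceeded the highest KO library. The mean fell from 97.9 ± 10.9 to 55.5 ± 7.45 CPM (SD, n = 3), a log2 fold change of -0.82 ± 0.12 with an adjusted p of 6.9e-05 (edgeR). The antisense gene Gm44732, 98.4% of whose exon bases lie within those of Cdkn1c, had 4 to 21 counts per library, so few Cdkn1c reads were assigned to it. In these bulk samples, fewer cells that express a gene and less RNA per cell cannot be told apart.

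Phlda2 (chr7:143055282-143056887, minus strand) encodes a small pleckstrin homology domain protein that limits growth of the placenta, and its CpG-rich promoter is printed above. Its level was 24.3, 24.0 and 18.1 CPM in WT and 6.89, 10.2 and 9.25 CPM in KO libraries, from 263 to 326 and from 85 to 132 counts. No KO library came near the lowest WT library. The mean fell from 22.2 ± 3.49 to 8.77 ± 1.70 CPM (SD, n = 3), a log2 fold change of -1.33 ± 0.18 with an adjusted p of 3.2e-05 (edgeR) and a 95% interval from -1.70 to -0.96. KO over WT by replicate number was 0.283, 0.424 and 0.510.

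The other genes of the Kcnq1ot1 domain had smaller differences or few counts. Tssc4, whose product takes part in assembly of the spliceosome, had 30.4, 31.0 and 28.2 CPM in WT and 36.8, 33.8 and 31.7 CPM in KO libraries. All 3 KO libraries of Tssc4 exceeded the WT libraries, but the log2 fold change of 0.19 ± 0.12 had an adjusted p of 0.305 (edgeR). Nap1l4, a histone chaperone gene, had 227, 250 and 241 CPM in WT and 226, 249 and 234 CPM in KO libraries. The 95% interval of its log2 fold change, from -0.22 to 0.18, was the narrowest of the members tested. Libraries of the same replicate number had nearly the same level of Nap1l4, at 0.996, 0.994 and 0.970 times WT.

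Ascl2, a bHLH transcription factor needed in trophoblast, had 4.33, 4.38 and 2.57 CPM in WT and 4.78, 3.16 and 2.56 CPM in KO libraries. The groups overlapped, and the log2 fold change was -0.10 ± 0.30 with an adjusted p of 0.872 (edgeR). Slc22a18, a membrane transporter gene that lies between Cdkn1c and Phlda2, had 9, 11 and 12 counts in WT and 17, 3 and 5 counts in KO libraries. The interval of its log2 fold change ran from -1.52 to 0.87, so neither a fall as large as that of its neighbours nor a rise could be told from no difference at this depth.

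**Figure D2:**
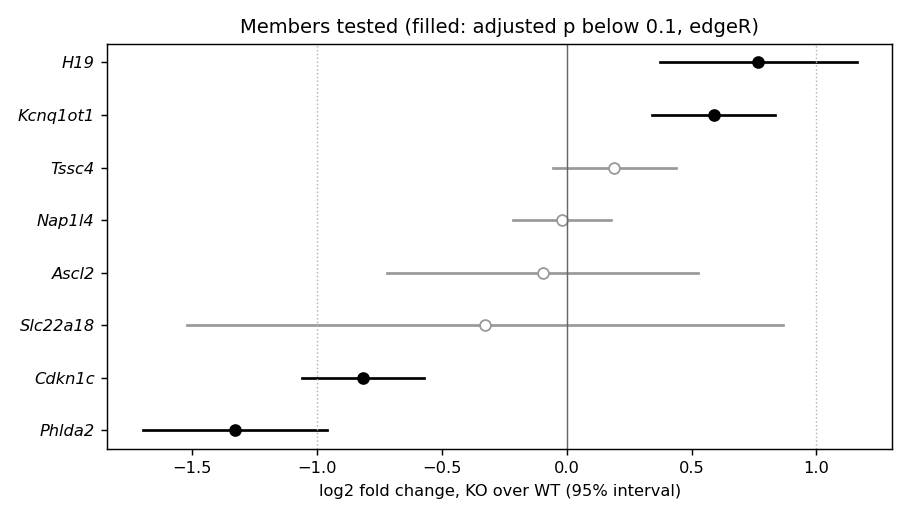
Log2 fold change of Oct6 KO over WT EpiLCs with its 95% interval for the 8 genes tested, filled where the adjusted p was below 0.1 in edgeR, with dotted lines at an absolute value of 1. H19 (0.77) and Kcnq1ot1 (0.59) lie above 0, Cdkn1c (-0.82) and Phlda2 (-1.33) below, and the intervals of the other 4 genes include 0.

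Ranked by CPM per kb of merged exons, Cdkn1c was the most abundant member in WT EpiLCs, at 45.4 ± 5.07. Nap1l4 (20.7 ± 1.02), Phlda2 (19.7 ± 3.10), H19 (18.0 ± 3.16) and Tssc4 (15.2 ± 0.757) followed. For each pair of neighbours among these 4, the ranges of mean ± SD overlapped. Ascl2 (2.31 ± 0.632) and Kcnq1ot1 (1.66 ± 0.261) also had overlapping ranges, and Slc22a18 and Kcnq1 were below 1. For Kcnq1ot1 all annotated exons together, 93852 bases, were taken as the length.

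In Oct6 KO EpiLCs the order of the means changed at the top. H19 (30.6 ± 10.8 CPM per kb) and Cdkn1c (25.8 ± 3.46) overlapped within their SD. Nap1l4 stood next at 20.4 ± 1.01, a range that also overlapped that of H19. Phlda2 lay below Tssc4, at 7.80 ± 1.51 against 17.3 ± 1.31 CPM per kb. All SDs are over 3 libraries.

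Ratios of counts between members within a library do not depend on the normalization. The ratio of Cdkn1c to Kcnq1ot1 was 0.60, 0.817 and 0.515 in WT and 0.250, 0.271 and 0.196 in KO libraries, without overlap. Phlda2 to Kcnq1ot1 was 0.140, 0.188 and 0.110 in WT and 0.0273, 0.0499 and 0.0375 in KO libraries. Since Cdkn1c and Phlda2 were lower and Kcnq1ot1 higher in every KO library, these ratios could not overlap and add no separate result. Both ratios to Kcnq1ot1 were highest in replicate 2 of either genotype, where Kcnq1ot1 itself was lowest.

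Phlda2 to Cdkn1c was 0.234, 0.230 and 0.212 in WT and 0.109, 0.184 and 0.192 in KO libraries. Every KO library had less Phlda2 per Cdkn1c count than the WT libraries, with KO replicate 1 the lowest. For H19 to Kcnq1ot1, 0.354, 0.364 and 0.274 in WT stood against 0.378, 0.261 and 0.457 in KO libraries, and the groups overlapped.

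**Figure D3:**
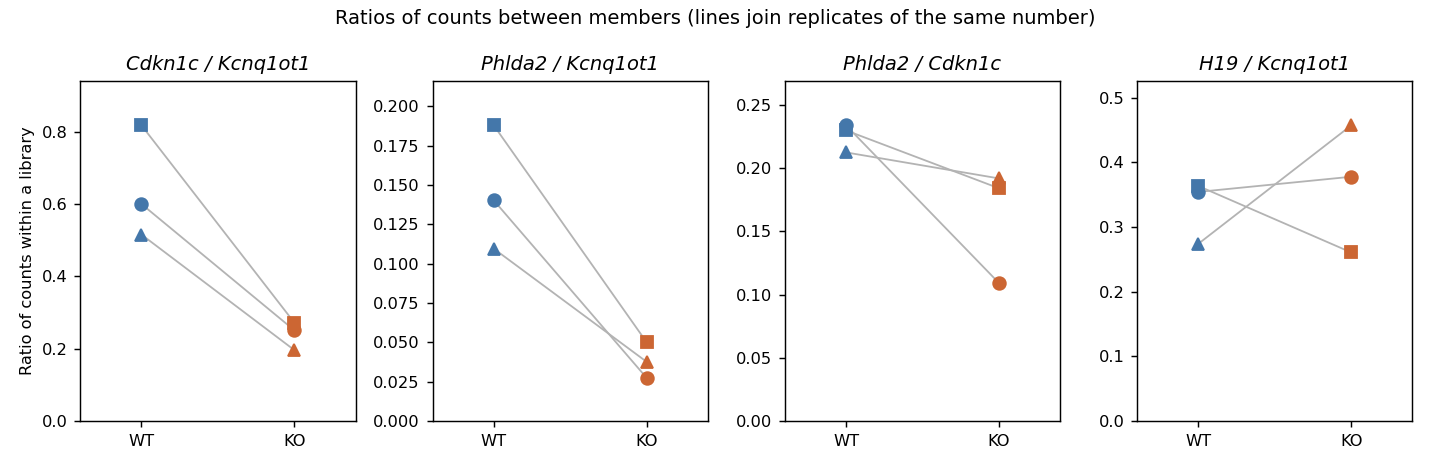
Ratios of the counts of a pair of members within each library, for WT (blue) and Oct6 KO (orange) EpiLCs, on linear axes from 0, with grey lines joining libraries of the same replicate number. Cdkn1c over Kcnq1ot1 lies between 0.515 and 0.817 in WT and between 0.196 and 0.271 in KO libraries, while H19 over Kcnq1ot1 overlaps between the genotypes.

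By position, members that were not called lay between the called ones, but a missing call does not show that a gene was unchanged. The 95% intervals of the log2 fold change were wide for Ascl2 (-0.72 to 0.53) and Slc22a18 (-1.52 to 0.87). From the H19 side towards the telomere, the called genes were H19, then Kcnq1ot1, Cdkn1c and Phlda2, with Ascl2, Tssc4 and Slc22a18 between them and Nap1l4 after them. Between H19 and Nap1l4, 5 genes that are not members could be tested (Tspan32os, Tspan32, R74862, Cd81 and Gm44732). None was called by edgeR, beside 24.3% of all genes tested, and 1, Tspan32, had an unadjusted p below 0.05. Cd81 had the smallest SE of the log2 fold change, at 0.095. The SEs of the other genes ran from 0.24 to 0.46, so their differences were loosely measured.

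The list of other distal chromosome 7 genes, which continues beyond both clusters, had 9 genes tested of 21. None was called by edgeR or DESeq2, beside the same 24.3%, and 1 had an unadjusted p below 0.05. Its median log2 fold change was -0.19, against 0.0014 over all genes tested. In 3 of them, Ctsd, Mrpl23 and Tspan32, every KO library lay below every WT library, a share near the 33.7% of all genes tested.

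Tspan32, a tetraspanin gene, had 2.61, 3.38 and 3.38 CPM in WT and 1.22, 2.47 and 1.88 CPM in KO libraries. Its log2 fold change was -0.74 ± 0.32, with an adjusted p of 0.122 (edgeR), and it was the 1 gene of the list called once the replicate number entered as a block in edgeR, a call not made by DESeq2 with the block. Of all 19 other genes tested within 1 Mb of the members, 1 was called, or 5.26% beside 24.3%: Shank2, which encodes a scaffold protein of synapses, with a log2 fold change of -1.27 ± 0.31 and an adjusted p of 0.0068. Tspan32 and Shank2 were singled out after their values were seen.

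**Figure D4:**
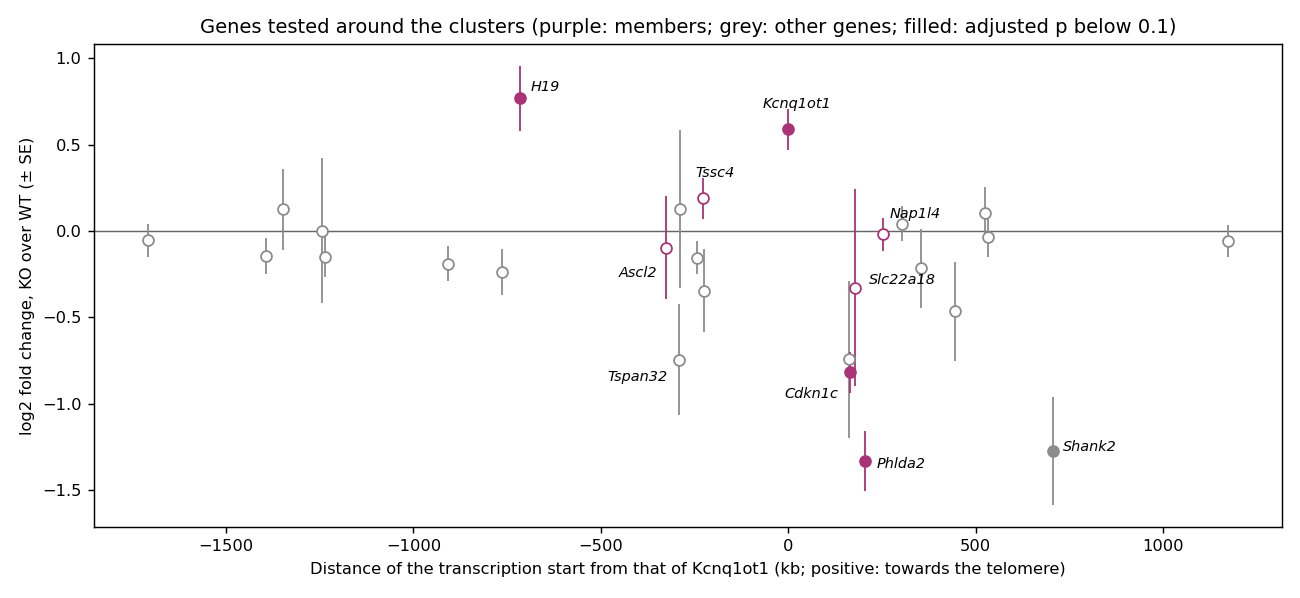
Log2 fold change (± SE) of Oct6 KO over WT EpiLCs for the genes tested around the clusters, against the distance of each transcription start from that of Kcnq1ot1 in kb, with members in purple, other genes in grey and filled points for an adjusted p below 0.1. Of the 19 other genes, Shank2 (-1.27) is the single filled point.

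Methylation at imprinting control regions is read by zinc finger proteins that recognise the methylated allele with their partner TRIM28, written and kept by DNA methyltransferases, and oxidised by TET enzymes, while CTCF binds the unmethylated allele. Of 14 genes for such proteins tested, 2 were called higher and 1 lower, and their roles differ in direction. The maintenance methyltransferase gene Dnmt1 had a log2 fold change of 0.23 ± 0.094 (adjusted p = 0.0945, edgeR), from 400 ± 20.8 to 470 ± 26.0 CPM, and lost its call whichever library was left out (adjusted p 0.103 to 0.248). Tet1, which oxidises methylcytosine, rose from 266 ± 42.0 to 356 ± 41.8 CPM, by 0.42 ± 0.12 (adjusted p = 0.0168).

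Tet3 had a log2 fold change of -0.34 ± 0.14 (adjusted p = 0.0858), from 23.0 ± 0.869 to 18.1 ± 1.83 CPM, on chromosome 6 with its median of -0.40, and lost its call with DESeq2 (0.126) and without any library other than KO replicate 3 (0.115 to 0.298). Ctcf itself was at 292 ± 6.21 CPM in WT and 297 ± 15.9 CPM in KO libraries and was not called. The count for this list moved from 3 of 14 to 8 with the replicate number as a block in edgeR (Zfp57, Zfp445, Trim28, Dnmt1, Dnmt3a and Tet1 higher, Dnmt3b and Tet3 lower), to 4 with DESeq2 and the block, and was 1 without WT replicate 1, KO replicate 1 or KO replicate 2.

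Silencing by Kcnq1ot1 is known to involve Polycomb complexes and the histone methyltransferases EHMT1 and EHMT2. Of 7 genes for these enzymes, Ezh2, the catalytic subunit of Polycomb repressive complex 2, fell from 130 ± 10.8 to 88.8 ± 3.06 CPM, by a log2 fold change of -0.55 ± 0.10 (adjusted p = 5.5e-04, edgeR). Ezh2 also lies on chromosome 6. Eed, another subunit of that complex, was at 112 ± 9.09 and 134 ± 13.7 CPM, with a log2 fold change of 0.26 ± 0.10 and an adjusted p of 0.0993, above the threshold without WT replicate 1 or 2 or KO replicate 1 or 2 (0.230 to 0.334). The calls on this list numbered 1 with DESeq2, where Eed was lost, and 3 with the block, where Suz12 was added.

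Genes of the insulin-like growth factor axis, in which Igf2 acts, were called in 7 of 14 cases, 2 higher and 5 lower. Igfbp3, a binding protein that carries the ligands, fell from 63.5 ± 4.23 to 36.6 ± 4.45 CPM, with a log2 fold change of -0.80 ± 0.11 (adjusted p = 7.1e-05, edgeR). The receptor genes Igf1r (-0.48 ± 0.13) and Insr (-0.37 ± 0.13) fell, with adjusted p of 0.0143 and 0.0486. The call of Insr was lost without WT replicate 3, KO replicate 1 or KO replicate 2 (adjusted p 0.150, 0.197 and 0.133). The receptor that removes IGF2, Igf2r, was at 193 ± 29.9 and 216 ± 37.5 CPM and was not called.

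Among the RNA-binding proteins named for Igf2 mRNA, Igf2bp3 had a log2 fold change of -0.70 ± 0.096 (adjusted p = 4.7e-05) and Igf2bp2 of 0.49 ± 0.16 (adjusted p = 0.0434). Igf2bp2 was at 24.8, 24.9 and 28.3 CPM in WT and 24.8, 42.2 and 42.4 CPM in KO libraries, so the groups overlapped, and its call was lost without WT replicate 1 or 2 or KO replicate 2 or 3 (adjusted p 0.104, 0.112, 0.191 and 0.214). Igf2bp3 and Igf2bp2 lie on chromosomes 6 and 16, whose medians of -0.40 and 0.55 have the same signs. Grb10, an imprinted adaptor that dampens the receptors, rose from 28.6 ± 1.51 to 38.9 ± 3.02 CPM (log2 fold change 0.45 ± 0.12, adjusted p = 0.0106). The remaining call was Igf2bp1, at -0.32 ± 0.091.

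Among the CDK inhibitors and the cyclins and CDKs of G1, the group to which Cdkn1c belongs, 6 of 14 genes were called, 2 higher and 4 lower. Cdkn1a, which encodes p21, fell from 22.8 ± 3.65 to 11.4 ± 2.18 CPM (log2 fold change -0.996 ± 0.17, adjusted p = 3.2e-04, edgeR). Cdkn1b, for p27, fell by 0.36 ± 0.11 on the log2 scale (adjusted p = 0.0224). It lies on chromosome 6, where the median log2 fold change was -0.40, and stood no lower than that median. In Oct6 KO against WT EpiLCs, the Cip/Kip genes were at 55.5 against 97.9 CPM for Cdkn1c, 11.4 against 22.8 for Cdkn1a and 47.6 against 60.9 for Cdkn1b.

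Of the INK4 family, Cdkn2b fell (-0.55 ± 0.14, adjusted p = 0.0100) and the other 3 members were not called. Cdk6 rose from 18.1 ± 3.64 to 34.1 ± 5.84 CPM (log2 fold change 0.92 ± 0.16, adjusted p = 3.9e-04) and Ccne2 by 0.44 ± 0.12 (adjusted p = 0.0166, and 0.131 without KO replicate 2), while Ccnd1 fell from 252 ± 12.3 to 175 ± 33.4 CPM (-0.52 ± 0.12, adjusted p = 0.0035). Of the paralogs of Phlda2, Phlda1 fell from 3.69 ± 0.432 to 1.67 ± 0.417 CPM (-1.14 ± 0.30, adjusted p = 0.0114) and Phlda3, at 103 CPM in both groups, was not called.

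**Figure D5:**
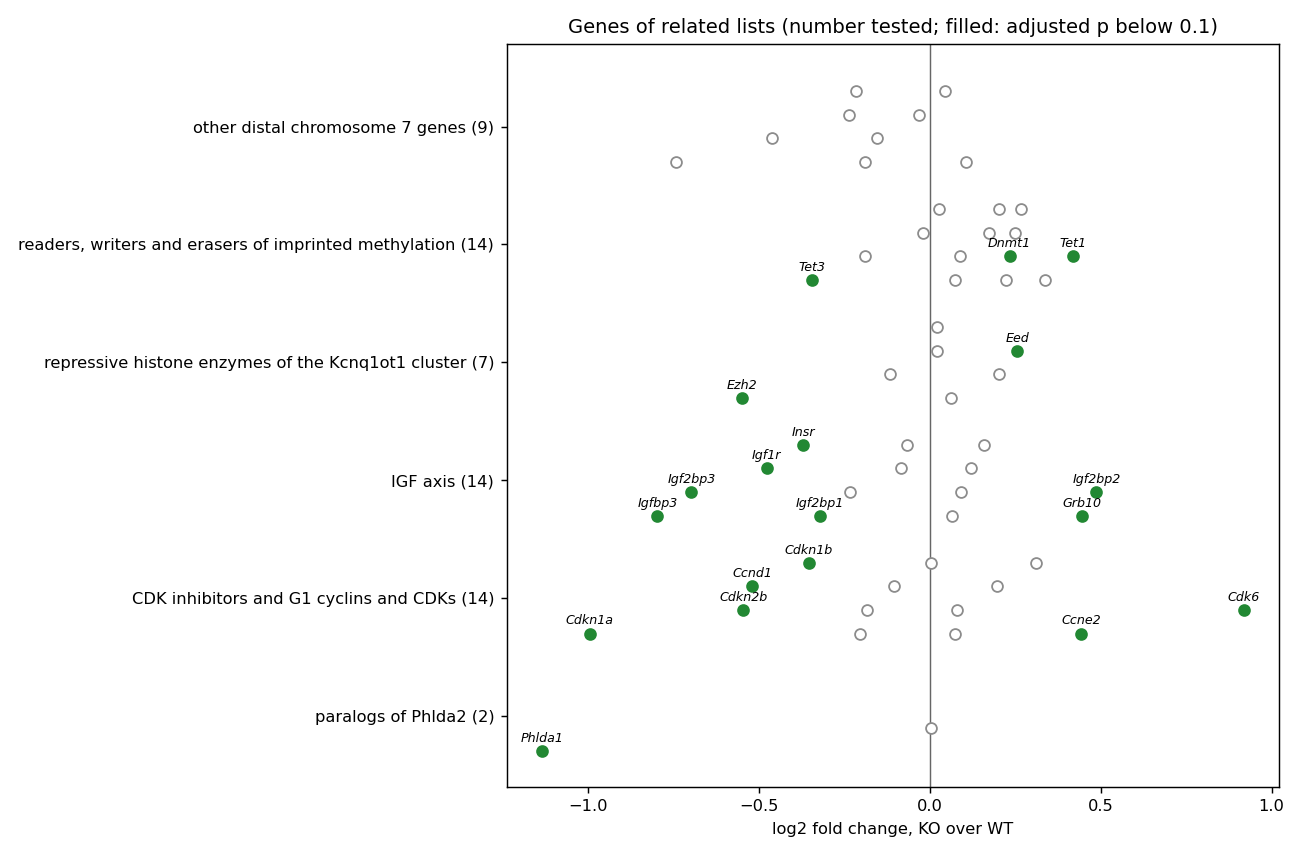
Log2 fold change of Oct6 KO over WT EpiLCs for the genes tested of each related list, with the number tested in parentheses, a vertical offset that only separates points, and filled points for an adjusted p below 0.1 (edgeR). No gene of the other distal chromosome 7 list is filled, against 7 of 14 for the IGF axis and 6 of 14 for the CDK list.

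The shares called on these lists, 21.4% for the genes of imprinted methylation, 28.6% for the histone enzymes, 7 of 14 genes for the IGF axis and 42.9% for the CDK list, stand beside 24.3% of all genes tested. The median log2 fold change was 0.19, 0.022, -0.076 and -0.052 in the same order.

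Several members are known for expression in extraembryonic tissue, and markers of other cell types were read for that reason. Of 10 trophoblast markers, 7 were below 1 CPM in every library, Tpbpa was at 0, and the summed level was 13.5 to 14.6 CPM in WT and 12.5 to 15.7 CPM in KO libraries. The tested markers of this list moved apart, Eomes by 0.87 ± 0.20 (adjusted p = 0.0034, edgeR) and Krt7 by -1.01 ± 0.24 (adjusted p = 0.0050). The 10 primitive endoderm markers summed to 115 to 149 CPM in WT and 97.3 to 142 CPM in KO libraries, most of it Sparc, and Ttr was at 0. In this list Gata6 (1.36 ± 0.36) and Pdgfra (0.94 ± 0.38) were called higher and Sparc (-0.33 ± 0.11) lower. None of these 3 kept its call without KO replicate 3 (adjusted p 0.113, 0.277 and 0.103), Pdgfra also lost it with DESeq2 (0.157) and without WT replicate 2 or 3 or KO replicate 1, and Sparc without WT replicate 1 or KO replicate 2.

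The 10 mesoderm markers summed to 6.27 to 8.05 CPM in WT and 10.7 to 12.3 CPM in KO libraries, with Kdr (2.64 ± 0.45) and Twist1 (0.78 ± 0.24, adjusted p 0.105 without KO replicate 3) higher and 7 of the 10 below 1 CPM throughout. The 10 fibroblast markers summed to 16.6 to 29.6 CPM in WT and 11.4 to 19.7 CPM in KO libraries, with Fap at 0 and Thy1 called lower (-1.22 ± 0.35), 4 of them called lower with the block in edgeR and 0 with DESeq2 and the block. Without KO replicate 1 that count was 4, and without WT replicate 2 it was 3. EpiLC markers Otx2 (0.92 ± 0.15), Fgf5 (0.65 ± 0.11) and Sox2 (0.42 ± 0.13) were higher, Sox2 losing its call without WT replicate 1 or KO replicate 3 (adjusted p 0.111 and 0.206). With the block Pou5f1, Dnmt3b and Lin28a were also called by edgeR, all 3 lower, 5 markers were called by DESeq2 with the block, and 5 by edgeR without WT replicate 3. In the main fit, edgeR called 2 of 2 trophoblast markers tested, 3 of 6 of primitive endoderm and 2 of 3 of mesoderm. For fibroblast and EpiLC markers it called 1 of 5 and 3 of 8, beside 24.3% of all genes tested. Each of these lists held few genes. The part of these cell types in the levels of the imprinted genes was not tested.

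Over the 6 libraries, the genes whose log2 CPM ran most like that of H19, among 9859 ranked, were Sord, Ncoa3 and Atg2b, with Pearson's r of 0.993, 0.977 and 0.976. None of these 3 was called between the genotypes. For Phlda2 they were Tinf2 (0.998), Ighmbp2 (0.998) and Engase (0.996), which were all lower in Oct6 KO EpiLCs, by 0.39, 0.67 and 0.66 on the log2 scale. With 6 points that share library and genotype, such coefficients only describe these libraries. No likeness could be ranked for Igf2.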

How the data were processed

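RNA was total RNA, made into libraries with the TruSeq Stranded Total RNA kit and sequenced as paired ends. Raw counts per gene were deposited by the authors, without normalization or filter, after FastQC, trimming with Fastp and mapping to GRCm39 with STAR in its 2-pass mode. Which annotation release and STAR version were used, whether strand was used and how multi-mapping reads were treated is not given in the sources used here.

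Identifiers were matched to GENCODE M39 (54749 matched, 667 did not). In R 4.3.3 with edgeR 4.0.16, TMM normalization, filterByExpr (minimum count 10) and the quasi-likelihood test were applied to all 6 libraries with genotype as the only term. SEs derive from the F statistic. CPM are relative to TMM-scaled totals. Alternatives were DESeq2 1.42.0, other size factors, other filters, an adjusted p of 0.05, a replicate block and each library left out.

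Members and lists were chosen with earlier results of these data known. Named genes were all members, and of each list those called, or the 6 largest changes, with the exceptions stated. Imprinted genes of other regions are counted, with the called ones outside chromosome 6 named after their values were seen. The series text calls the replicates paired. Deviations from the group mean correlated between libraries of the same number (r = 0.257, 0.298 and 0.122 over 13078 genes, a description) and were negative between different numbers (-0.233 to -0.0379), to which deviations from a mean of 3 libraries lean by construction.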

Additional observations from a re-analysis of the deposited data

How the results depend on the processing

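The directions and calls of Kcnq1ot1, Cdkn1c and Phlda2 held under every alternative run. H19 kept its direction, but its adjusted p was 0.123 with DESeq2 (log2 fold change 0.77) and 0.128 with DESeq2 and the replicate block (0.71), so members called numbered 3 there and 4 elsewhere. With the replicate number as a block in edgeR no member's call changed. That block called 4764 genes in all, against 3833 without it and 2931 with DESeq2 and the block, and 1 other distal chromosome 7 gene, Tspan32, which DESeq2 with the block did not call. With at least 10 counts in every library 584 genes were DE in place of 978, Tspan32 was again the 1 other distal gene called, and Slc22a18 left the test. The cause of these shifts was not tested.

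With each library left out in turn, and the rest of its group standing for its spread, log2 fold changes ran from 0.54 to 1.03 for H19, 0.46 to 0.68 for Kcnq1ot1, -0.92 to -0.72 for Cdkn1c and -1.46 to -1.19 for Phlda2. DE members numbered 1 to 2, the second being H19 (1.03) without KO replicate 2, and other distal genes called numbered 0 to 1, with Tspan32 called without that same library. The sign turned for 3 members that were never called: Ascl2 (-0.39 to 0.088), Slc22a18 (-1.41 to 0.075) and Nap1l4 (-0.059 to 0.0096). Across all alternatives, calls ran from 1 to 8 for the genes of imprinted methylation, 1 to 3 for the histone enzymes, 0 to 4 for the fibroblast and for the primitive endoderm markers, 2 to 6 for the EpiLC markers, 1 to 2 for the mesoderm markers, 2 to 3 for the trophoblast markers, 5 to 7 for the IGF axis, 5 to 6 for the CDK list and 14 to 19 for imprinted genes of other regions. Of the values of named list genes under the alternatives, 327 kept direction and call and 48 lost the call.

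With 3 libraries per group and a biological coefficient of variation of 11.7%, precision is carried by the SEs printed. Members with few counts, Kcnq1 and Slc22a18, were below what this depth can compare.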

Other observations

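Imprinted genes outside distal chromosome 7 gave a point of reference for the clusters. Of 31 tested, 16 were called by edgeR, 5 higher and 11 lower in Oct6 KO EpiLCs, which is 51.6% against 24.3% of all genes tested. Several of these genes share a cluster, so they are not separate observations. The list was chosen with earlier results of these data known. The 5 higher genes, named after their values were seen, were Peg3 (log2 fold change 1.32 ± 0.14), Usp29 (1.07 ± 0.16) and Zim1 (1.58 ± 0.48) of the proximal chromosome 7 cluster, Grb10 (0.45 ± 0.12) on chromosome 11, and the amino acid transporter Slc38a4 (2.54 ± 0.12) on chromosome 15. All 5 genes tested on chromosome 6 were lower, where the median over 773 genes was -0.40. Without chromosome 6, 11 of 26 were called, 5 higher and 6 lower, with a median log2 fold change of 0.0043, against -0.14 with it. Those 6 lower genes, also named after their values were seen, included the long non-coding RNAs Meg3 (-0.52), Rian (-0.55) and Mirg (-0.47) on chromosome 12. The others were Gnas (-0.47), Nnat (-0.77) and Sfmbt2 (-0.36) on chromosome 2.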
